A study of Mus musculus with 12 samples.

Results

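Glycolysis, the path from glucose to pyruvate and lactate, was followed through 33 named genes in mouse lung tumors and in normal mouse lung. Of the 33 genes, chosen by name as the sugar and lactate transporters, glycolytic enzymes, lactate dehydrogenases, and pyruvate dehydrogenase with its kinases, 32 were found among the 30399 genes of the deposited table. G6pdx, the entry enzyme of the pentose phosphate pathway, was not analysed here. The study, by its title, concerns mouse lung cancer models made by nonviral CRISPR/Cas9 mutagenesis, in which a guided nuclease cuts chosen genes and faulty repair disables them. RNA sequencing after poly-A selection covered 5 samples labelled as normal lung and 7 labelled as tumor. The labels give no strain, age, sex or treatment for either group, and the genes targeted in each tumor are not named there. Tumors 3 and 4 share the title number 159, and tumors 5, 6 and 7 share 201, so the 7 tumors carry 4 distinct numbers. The titles of tumors 1 and 7 hold a word for trachea. Nothing in the labels says that the samples come from separate animals, so p-values measure only the spread between these samples, which may in part be technical.

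Glycolysis splits glucose into pyruvate and yields ATP and NADH without oxygen. Lactate dehydrogenase, a tetramer of A and B subunits encoded by Ldha and Ldhb, turns pyruvate into lactate and back, while the pyruvate dehydrogenase complex sends pyruvate into the mitochondrial tricarboxylic acid cycle and is switched off by the Pdk kinases. Most steps have several isozymes with their own tissue preferences, and proliferating and tumor cells are known for running the path to lactate at a high rate.

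Of the 32 genes, 15 were higher and 7 were lower in tumors at a limma adjusted p under 0.05, and 10 did not pass. Over all 23674 genes tested, 61.5% passed in either direction, with 31.4% higher and 30.1% lower. The median log2 fold change was 0.46 over the 32 genes and 0.04 over all genes tested. In 11 of the 32 genes all tumors lay above all normal lungs, and in 2 all lay below, which holds for 20.1% and 18.4% of all genes tested (38.4% in either direction). With a fold limit of 2 in size added, 10 genes were higher and 6 lower, beside 24.0% and 24.5% of all genes (48.5% in either direction). Count tests on 11 samples gave 15 higher and 6 lower with edgeR, where 61.2% of all genes tested passed, and 15 and 7 with DESeq2, where 55.3% did. Proliferation markers moved with the higher genes: 14 of 14 were higher, none was at 0 in any sample, and their sums were 2058 to 3857 in normal lung and 26846 to 60015 in tumors. Their part in the higher genes was not tested. Both groups are whole tissue, in which fewer cells of a type and less RNA per cell cannot be told apart.

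The lower steps of the path run from triose phosphates to pyruvate. Of the 7 genes acting there, Gapdh, Pgk1, Pgam1, Eno1, Eno2 and Pkm were higher, each at least 2-fold, and Bpgm was lower. Of the 9 genes of the upper steps from glucose to triose phosphates, 6 were higher and none passed in the other direction. The 4 transporters held 0 higher and 1 lower, the 4 enzymes that set fructose 2,6-bisphosphate 2 and 2, the 2 lactate dehydrogenases 0 and 1, and the 6 pyruvate dehydrogenase genes 1 and 2. Each count of 0 here was also 0 at an unadjusted limma p under 0.05 and at an adjusted p in edgeR and DESeq2. Beside these counts, 31.4% of all genes tested were higher and 30.1% lower, or 61.5% in either direction. With the fold limit of 2 added, 24.0% of all genes were higher. The groups hold 2 to 9 genes each, so their counts are not read as traits of the steps.

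**Figure D1:**
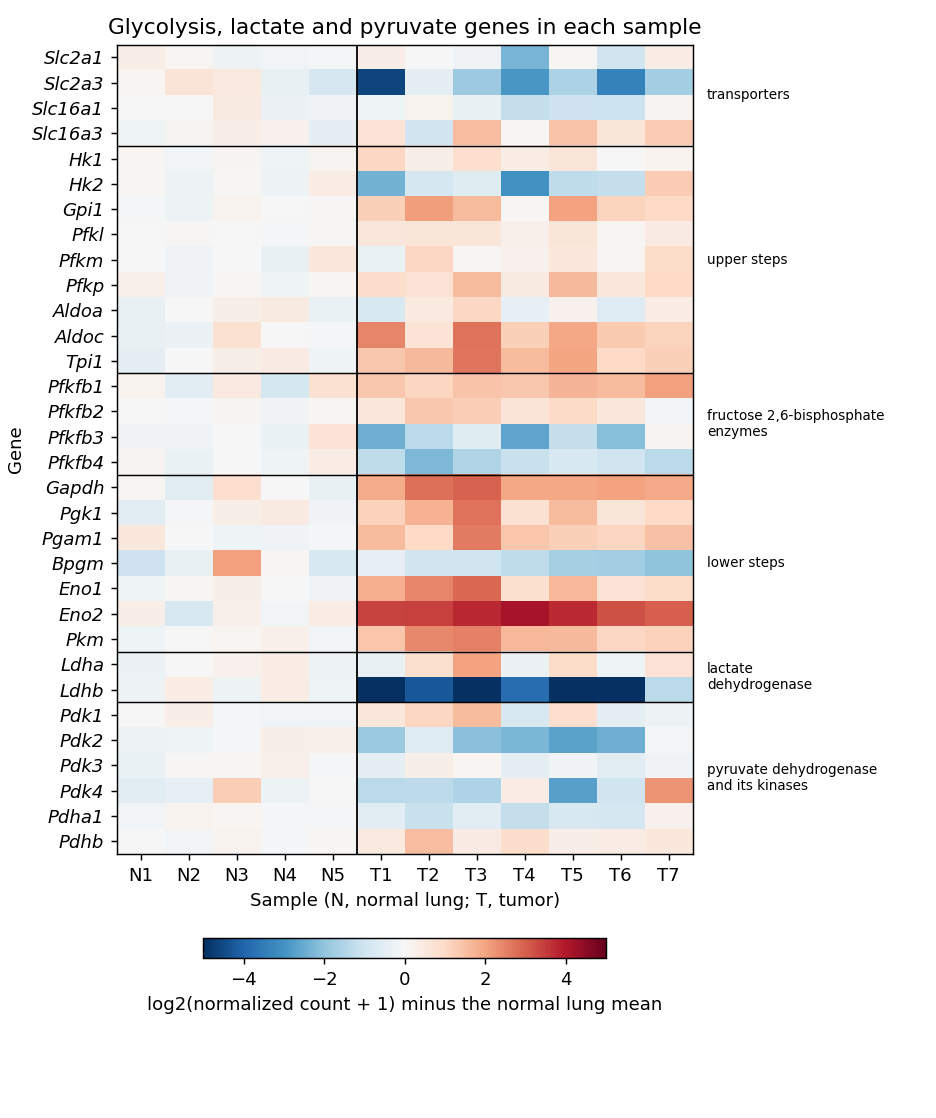
Each row is a gene and each column a sample (N1 to N5, normal lung; T1 to T7, tumor). The colour is log2(normalized count + 1) minus the mean of the 5 normal lungs, with values beyond 5 drawn at the end of the scale. The rows from Gapdh to Pkm are red in the 7 tumors except Bpgm, and the darkest blue row is Ldhb.

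**Figure D2:**
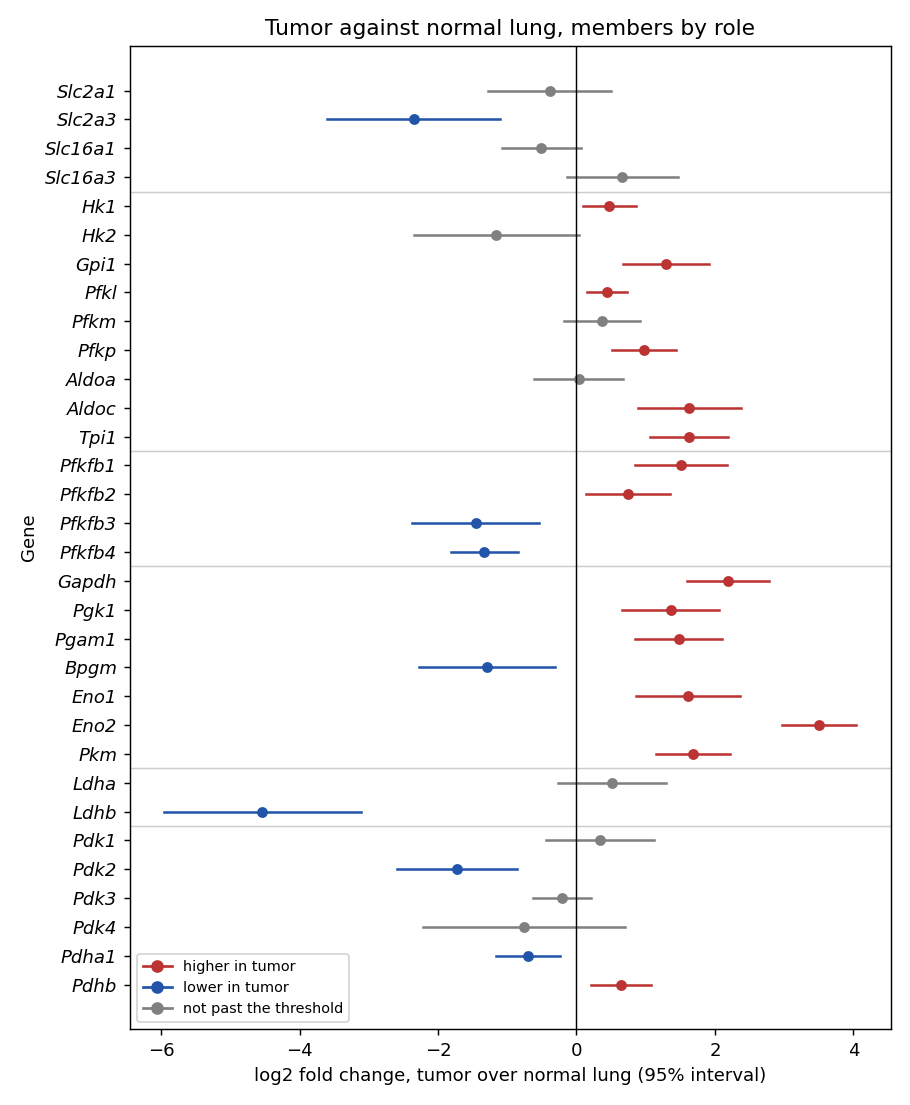
Points are limma log2 fold changes of tumor (n = 7) over normal lung (n = 5) and lines their 95% intervals, with genes grouped by role from transporters at the top to pyruvate dehydrogenase at the bottom. Eno2 lies farthest to the right at 3.51 and Ldhb farthest to the left at -4.54.

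Genes of this path are textbook targets of hypoxia-inducible factors, which bind around the letters ACGTG, and of Myc, which binds the E-box CACGTG. The 250 bases upstream of the most upstream RefSeq start are shown for 4 genes. These are Ldhb, which was lower in tumors, Pgk1, which was higher, and Ldha and the glucose transporter Slc2a1, which did not pass the test. The sequences are from RefSeq on build GRCm38.p6, each written 5′ to 3′ on the strand of its gene, and capitals mark ACGTG or, for the other strand, CACGT. They lie at chr7:46845554-46845803 on the plus strand for Ldha, chr6:142507958-142508207 on the minus strand for Ldhb, chrX:106186850-106187099 on the plus strand for Pgk1 and chr4:119108495-119108744 on the plus strand for Slc2a1.
Ldha: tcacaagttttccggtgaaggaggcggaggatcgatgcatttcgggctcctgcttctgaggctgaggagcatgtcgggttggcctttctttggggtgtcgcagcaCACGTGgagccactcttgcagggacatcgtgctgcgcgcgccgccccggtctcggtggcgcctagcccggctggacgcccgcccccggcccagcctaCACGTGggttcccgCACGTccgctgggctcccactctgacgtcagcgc
Ldhb: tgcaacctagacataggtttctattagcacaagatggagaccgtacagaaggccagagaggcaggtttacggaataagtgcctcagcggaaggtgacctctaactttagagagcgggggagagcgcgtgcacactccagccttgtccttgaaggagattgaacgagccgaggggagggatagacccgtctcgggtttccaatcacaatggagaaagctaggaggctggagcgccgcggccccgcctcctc
Pgk1: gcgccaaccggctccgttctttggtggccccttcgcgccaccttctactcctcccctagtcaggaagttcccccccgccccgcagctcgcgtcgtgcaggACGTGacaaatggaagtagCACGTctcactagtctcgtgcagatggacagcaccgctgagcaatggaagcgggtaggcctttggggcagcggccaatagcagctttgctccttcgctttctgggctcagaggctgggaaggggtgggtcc
Slc2a1: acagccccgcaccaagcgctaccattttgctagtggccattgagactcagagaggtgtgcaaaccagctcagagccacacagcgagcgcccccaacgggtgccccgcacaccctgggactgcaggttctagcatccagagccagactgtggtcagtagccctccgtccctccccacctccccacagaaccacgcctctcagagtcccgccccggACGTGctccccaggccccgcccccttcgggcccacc
The Ldha stretch holds 2 copies of CACGTG, each of which also contains ACGTG on both strands, and 5 ACGTG matches counted over both strands. In Pgk1 there were 2 matches to ACGTG and in Slc2a1 there was 1. No match was found in the Ldhb stretch. Stretches of the same kind were read for Hk2, with 2 matches, and for Eno1, Eno2, Pkm, Gapdh, Tpi1 and Pdk1, with none. Outside those stretches Gapdh had 1 match, in the 50 bases after its start, and Pkm had 2, at another start. Over windows from 250 bases before to 50 after each start, ACGTG occurred on either strand in at least 1 window of 18 of the 31 genes with an entry (58.1%), against 21.8% of all 27025 genes in that table. These were 8 of the 15 genes higher in tumors, 2 of 6 lower and 8 of 10 that did not pass. CACGTG occurred in 6 of the 31 (19.4%) against 8.09% of all genes. A gene with more windows has more room for a match, and the 31 genes had 50 windows, against 32851 for all 27025. Per window, ACGTG was in 44% against 19.6% of all windows, and CACGTG in 12% against 7.15%. A match describes letters only, with no measurement of binding here.

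Of the lactate dehydrogenase subunits, Ldhb was lower in tumors and Ldha did not pass the test. Ldhb (ENSMUSG00000030246), the subunit common in heart and other oxidative tissues, read 685, 1056, 678, 1044 and 698 normalized counts in normal lungs 1 to 5. The 7 tumors gave 9.91 at the lowest, in tumor 3, a median of 23.6 and a highest of 316, in tumor 7. All tumors lay below all normal lungs, and 6 of the 7 were at 56.6 or lower. On the log2 scale the fitted change was -4.54 (SE 0.66, limma adjusted p = 5.27e-05), a 23.2-fold lower level on the log2(value + 1) scale. Ldhb remained lower in the count tests on 11 samples, where edgeR gave -3.29 on the log2 scale. Of the 100-base stretches of its longest coding transcript, 8.80% also occur in a pseudogene.

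Ldha (ENSMUSG00000063229), the subunit common in muscle and in lactate-producing cells, read 1937, 2391, 2773, 3058 and 1976 in normal lungs 1 to 5. Its tumor values ran from 1854 in tumor 1, with a median of 3962, to 9649.6 in tumor 3. The groups overlapped: 4 tumors lay above every normal lung and 3 did not. The difference did not pass the test, at a log2 fold change of 0.51 (95% interval -0.26 to 1.29, limma adjusted p = 0.229).

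Within each sample the ratio of Ldha to Ldhb, per kb of annotated exon, was 0.10 to 0.95 on the log2 scale in normal lung. In tumors it ran from 2.57 in tumor 7, with a median of 5.54, to 8.71 in tumor 3. The groups did not overlap, and the mean ratio was 5.05 log2 units higher in tumors. As a share of both transcripts per kb, Ldha made up 51.8% to 66.0% in normal lung and 85.6% to 99.8% in tumors. Such a ratio sets genes side by side within a sample, so the scaling between samples enters it only through the added pseudocount of 1.

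Tumor 7, the trachea-titled library that stood highest among tumors for Ldhb, also had the highest sums of cardiac, adipocyte and fibroblast markers of all samples. The 8 cardiac muscle markers found, Myh6 and Nppa among them, summed to 42034 normalized counts there and to 607 to 3032 in the other tumors, against 499 to 4780 in normal lung. None of the 8 was at 0 in tumor 7, Myh6 was at 0 in tumor 3 and Sln in tumor 1. The 6 adipocyte markers summed to 11237 in tumor 7, 103 to 1493 in the other tumors and 505 to 2258 in normal lung, and Lep was at 0 in tumor 2. Neither list had a gene past the adjusted limma test between the groups, and at an unadjusted p under 0.05 there were 2 cardiac genes, Myl7 higher and Tnni3 lower, and no adipocyte gene. The 10 fibroblast and smooth muscle markers, none of them at 0 in any sample, summed to 37698 in tumor 7, 4140 to 23066 in the other tumors and 14246 to 31148 in normal lung, with 4 lower in tumors and 6 that did not pass the limma test. Other lists peaked elsewhere among the tumors: the 7 skeletal muscle markers, with 0 past the limma test in either direction (0 also at an unadjusted p under 0.05), summed to 1457 in tumor 2, 639 in tumor 7 and 39.7 to 166 in the others, against 90.3 to 1384 in normal lung. In tumor 2 none of these 7 was at 0, and Myh1 was at 0 in the other 6 tumors. Tumor 7 was the highest tumor for 8 of the 32 genes, a count not made over all genes. These were Slc2a1, Hk2, Pfkfb1, Pfkfb3, Ldhb, Pdk2, Pdk4 and Pdha1. The part of those tissues in the values of tumor 7 was not tested. Without tumor 7 the log2 fold change of Ldhb was -5.07.

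**Figure D3:**
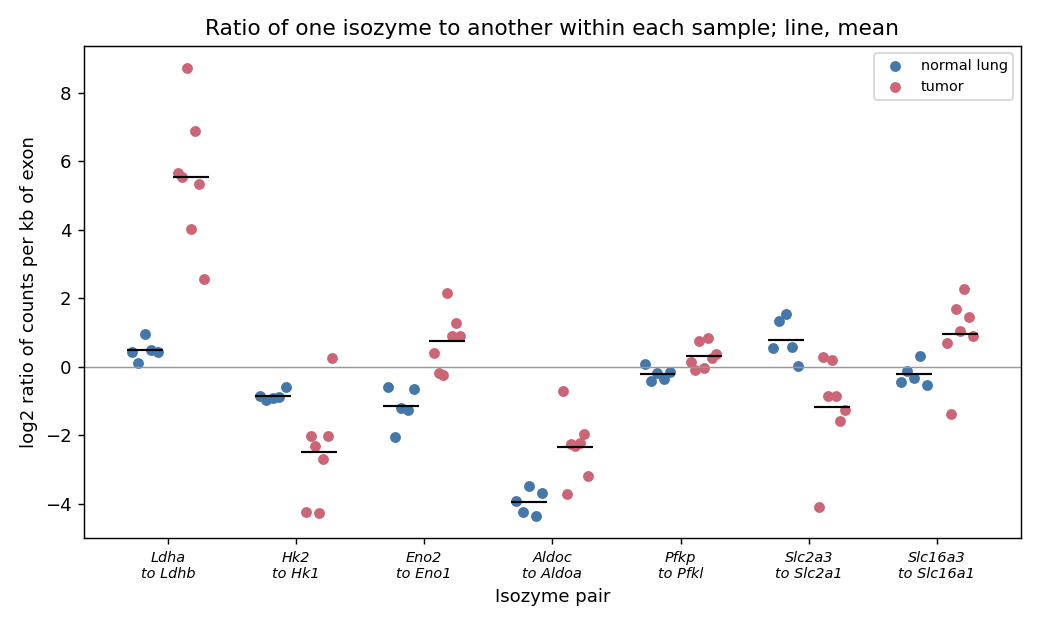
Each point is a sample's log2 ratio of one isozyme to another, in normalized counts per kb of exon, for 5 normal lungs (blue) and 7 tumors (red), with lines at the group means. Ldha to Ldhb and Eno2 to Eno1 separate the groups, while the other 5 pairs overlap.

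The lower steps of glycolysis turn triose phosphates into pyruvate and give its net ATP. Pkm (ENSMUSG00000032294), pyruvate kinase of muscle, lung and most dividing cells and the last enzyme of the path, read 3917, 4565, 4902, 5521 and 4179 in normal lungs 1 to 5. In tumors the lowest was 9485, in tumor 6, the median 14261 and the highest 26183, in tumor 3. Every tumor was above every normal lung, by a log2 fold change of 1.69 (SE 0.25, limma adjusted p = 6.18e-05), or 3.22-fold. Its M1 and M2 splice forms are not separated in a table of gene counts. Per kb of exon Pkm had the highest tumor level of the 32 genes, at a mean of 3168 against 923 in normal lung. Gm49759 overlaps 15.3% of the exon bases of Pkm on the same strand. Of the 100-base stretches of its longest coding transcript, 9.82% also occur in transcripts of other genes. How such reads were counted is not given in the sources used here. The rank also rests on Gapdh, Pgk1, Eno1 and Pgam1, whose shared sequence is given below.

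Eno2 (ENSMUSG00000004267), the neuron-specific enolase that is a clinical marker of neuroendocrine tumors, was raised more than any other of the 32 genes. Normal lungs 1 to 5 read 113, 50.5, 105, 80.4 and 114, whereas tumors ran from 711 in tumor 7 through a median of 952 to 1543 in tumor 4. The groups were far apart, at a log2 fold change of 3.51 (SE 0.25, limma adjusted p = 6.18e-08), or 11.4-fold. Markers of neuroendocrine cells, such as Chga and Syp, moved with it: 10 of 10 were higher, and their summed level was 113 to 170.1 in normal lung and 38963 to 136628 in tumors. Dcx was at 0 in all 5 normal lungs, Ina in 4 and Elavl3 in 1. The part of these markers' cells in the Eno2 level was not tested.

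Eno1, the enolase of most tissues, read 197, 245, 276, 224 and 203 in normal lung. Its tumor values had a lowest of 381 (tumor 6), a median of 728 and a highest of 1655 (tumor 3). It was higher in every tumor than in any normal lung, at a log2 fold change of 1.61 (SE 0.35, limma adjusted p = 0.00133). The ratio of Eno2 to Eno1 was -2.06 to -0.60 on the log2 scale in normal lung and -0.24 to 2.15 in tumors, without overlap. Eno2 made up 5.64% to 10.6% of the 3 enolase transcripts per kb in normal lung and 28.8% to 60.5% in tumors, with Eno3, the muscle enolase, at 65.1% to 78.5% and 12.8% to 55.7%.

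Gapdh, the enzyme that makes the NADH of glycolysis, read 161, 104, 269.7, 149.5 and 115 in normal lung. In tumors it was 553 at the lowest (tumor 1), 583 at the median and 1182 at the highest (tumor 3). All 7 tumors lay above the 5 normal lungs, with a log2 fold change of 2.19 (SE 0.27, limma adjusted p = 1.38e-05). Its level is low for a gene of its usual abundance, and 78.0% of the 100-base stretches of its longest coding transcript also occur in transcripts of other genes, 82 of which are pseudogenes. The same share was 67.0% for Pgk1, 59.0% for Eno1 and 39.7% for Pgam1. How reads matching several genes were counted is not given in the sources used here, so the levels of these 4 genes, and through Eno1 the enolase ratios and shares above, are uncertain.

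Pgk1, Pgam1 and Tpi1 also lay higher in all tumors. Pgk1, the first enzyme of the path to make ATP, read 204, 276, 355, 396 and 259.8 in normal lung and 445 to 1892 in tumors with a median of 647. It was higher by 1.36 on the log2 scale (SE 0.32, limma adjusted p = 0.00254). Pgam1, the phosphoglycerate mutase of most tissues, had 68.4, 46.2, 40.4, 42.3 and 43.7 in normal lung and 94.1 to 294 in tumors with a median of 126. Pgam1 stood 2.78-fold higher, at a log2 fold change of 1.47 (SE 0.29, limma adjusted p = 7.09e-04). Tpi1, which interconverts the triose phosphates and is counted here with the upper steps, had 576, 799.9, 976, 1058 and 694 in normal lung and 1615 to 5134 in tumors with a median of 2386. This was a 3.08-fold difference (log2 fold change 1.62, SE 0.26, limma adjusted p = 1.36e-04). Tumor 3 was the highest sample for all 3 genes.

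Bpgm was the exception among the lower steps. It encodes bisphosphoglycerate mutase, abundant in red blood cells, where its product lowers the oxygen affinity of hemoglobin. Normal lungs 1 to 5 read 1306, 2068, 11293, 2924 and 1608, with normal lung 3 far above the rest. Tumors ran from 675 in tumor 7 through a median of 1126 to 2019.5 in tumor 1, and the groups overlapped, with 4 tumors below every normal lung. On the log2 scale the fitted change was -1.29 (SE 0.45, limma adjusted p = 0.0243), and without normal lung 3 it was -0.78 (adjusted p = 0.0423, with 0.00439 to 0.115 over all alternatives). Of the 7 erythroid markers found, Hba-a1, Hba-a2, Hbb-bs and Hbb-bt were lower in tumors. Their list summed to 180113 in normal lung 3, to 7811 to 33984 in the other normal lungs, to 13569.8 in tumor 2 and to 98.1 to 1076 in the other tumors. The part of red blood cells in Bpgm was not tested.

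**Figure D4:**
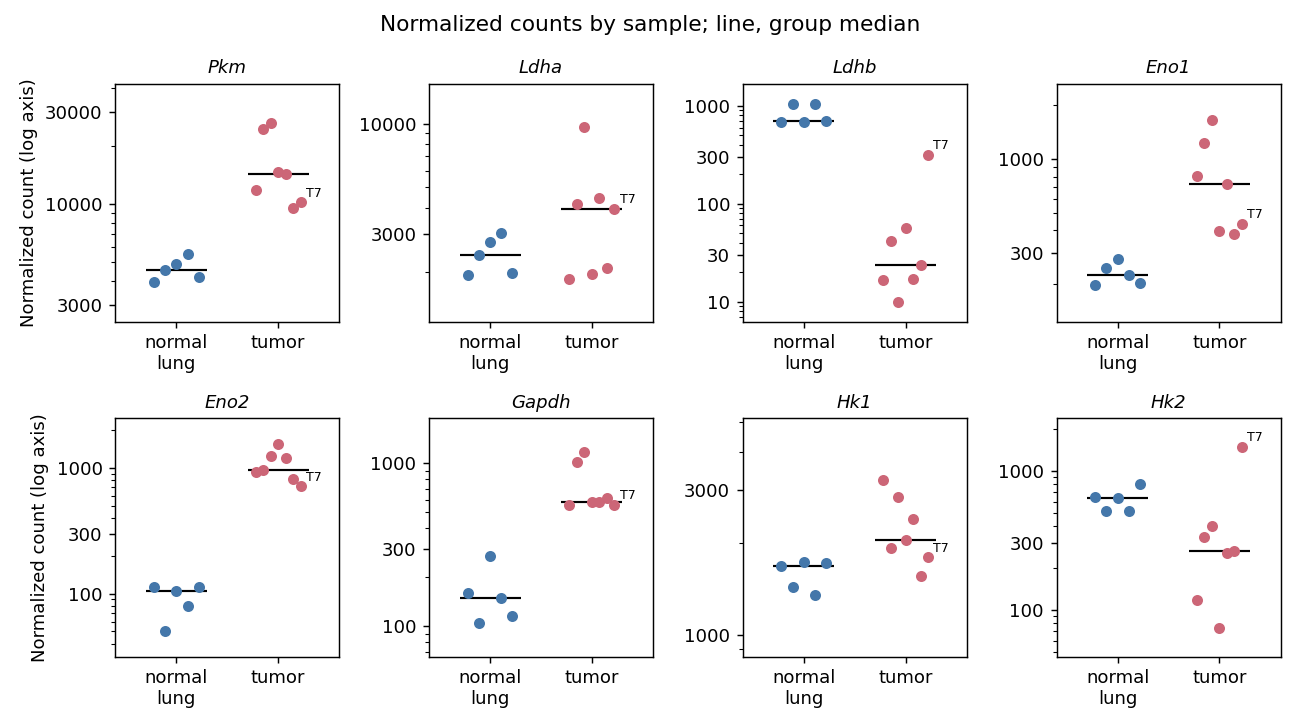
Normalized counts on log axes for 8 genes, each point a sample (5 normal lungs in blue, 7 tumors in red; T7, tumor 7) and each line a group median. Pkm, Eno1, Eno2 and Gapdh have all tumors above all normal lungs and Ldhb has all below, while Ldha, Hk1 and Hk2 overlap.

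In the upper steps, glucose is phosphorylated, rearranged, phosphorylated again by phosphofructokinase and split by aldolase. Hexokinase 1 (Hk1), the housekeeping form, read 1679, 1432, 1735, 1354 and 1723 in normal lung and 1559 to 3220.5 in tumors with a median of 2052. The groups overlapped through tumor 6 alone. Hk1 was higher by 0.48 on the log2 scale (SE 0.18, limma adjusted p = 0.0333). This call was lost without normal lung 2 or 4 or tumor 1, 3 or 5, at limma adjusted p-values of 0.0758, 0.081, 0.0589, 0.0638 and 0.0575. Hk1 also lost its call in edgeR with the deposited size factors. Over all alternatives its adjusted p ran from 0.00512 to 0.081.

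Hexokinase 2 (Hk2), the inducible form of muscle, fat and many tumors, read 651, 514, 639.6, 512 and 797 in normal lung. Its tumor values had a lowest of 73.6 in tumor 4, a median of 265 and a highest of 1488 in tumor 7. 6 tumors lay below every normal lung and tumor 7 lay above them all. The difference did not pass, at a log2 fold change of -1.16 (95% interval -2.35 to 0.03, limma adjusted p = 0.0848). Without tumor 7 it was -1.56, with an adjusted p of 0.00321. It also passed without the trachea-titled tumors (-1.40, adjusted p = 0.0067) and with the tumors of 1 title number averaged (-1.37, adjusted p = 0.00753), and over all alternatives the adjusted p ran up to 0.557, in edgeR at -0.45. In tumor 7 the cardiac and adipocyte marker sums given above were the highest of all samples, and their part in its Hk2 level was not tested.

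Other hexokinase genes belong to the neighbouring isozymes and not to the 33 genes. Hkdc1, a hexokinase-like enzyme of epithelia, lay lower in every tumor at -4.33 (SE 0.39, limma adjusted p = 6.64e-07), with a mean normalized count of 8.51 ± 5.06 over the tumors (SD, n = 7) and 173 ± 41.9 over the normal lungs (SD, n = 5). Hk3, the form of blood cells, read 124 to 271 in normal lung and 9.91 to 789 in tumors and did not pass (limma adjusted p = 0.281).

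Glucose phosphate isomerase (Gpi1) read 1341 to 1819 in normal lung and 1664 to 6765 in tumors with a median of 3661. It was higher in 6 of the 7 tumors than in any normal lung, at a log2 fold change of 1.30 (SE 0.29, limma adjusted p = 0.00164), and tumor 4 lay inside the normal range. Of the phosphofructokinase subunits, Pfkp, the platelet form, had 1095, 824, 959, 794 and 985 in normal lung and 1264 to 2876 in tumors with a median of 1709. Pfkl, the liver form, had 521, 553, 539, 505 and 548 against 565 to 812 with a median of 779.9. Both separated the groups, at log2 fold changes of 0.97 (SE 0.22, limma adjusted p = 0.00156) and 0.44 (SE 0.13, limma adjusted p = 0.011). Pfkm, the muscle form, read 231 to 438 and 236 to 617 and did not pass (log2 fold change 0.37, 95% interval -0.18 to 0.91). The ratio of Pfkp to Pfkl was -0.43 to 0.06 in normal lung and -0.09 to 0.83 in tumors on the log2 scale per kb, with overlap. Exons of Pfkp overlap Pitrm1 and those of Pfkm overlap Senp1 on the other strand, and use of strand is not given in the sources used here, so reads of these neighbours cannot be told apart.

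The aldolases, which split fructose 1,6-bisphosphate, parted. Aldoc, the form of brain and neuroendocrine tissue, read 155, 163, 341, 206 and 189.7 in normal lung and 325 to 1324 in tumors with a median of 508. It was higher in 6 of 7 tumors than in any normal lung, at a log2 fold change of 1.63 (SE 0.35, limma adjusted p = 0.00111). The neuroendocrine marker sums given with Eno2 moved with it too, and their part was not tested. Aldoa, the form of muscle and most tissues, read 2127, 2784, 3390.0, 3795 and 2187 in normal lung and 1619 to 5655 in tumors with a median of 3223. The difference was 0.03 on the log2 scale (95% interval -0.61 to 0.68, limma adjusted p = 0.929). Its sign turned in 10 of the 25 alternative settings, where the fit without tumor 3 is counted again as limma on the samples of the count tests. Per kb Aldoa remained the larger transcript in all samples, with 91.7% to 95.3% of the aldolase sum in normal lung and 61.7% to 92.9% in tumors.

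Fructose 2,6-bisphosphate, the strongest activator of phosphofructokinase, is made and broken down by the 4 Pfkfb enzymes. Pfkfb3 and Pfkfb4, the forms most often described as inducible and tumor-associated, were lower. Pfkfb4 read 1931, 1377, 1786, 1507 and 2294 in normal lung and 369 to 1019 in tumors with a median of 721. All tumors lay below all normal lungs, and the fitted change on the log2 scale was -1.33 (SE 0.23, limma adjusted p = 2.05e-04). Pfkfb3, whose product favours synthesis, read 1851, 1856, 2114, 1679 and 3498, against 343 to 2317 in tumors with a median of 828. Only tumor 7 reached the normal range, and the fitted change on the log2 scale was -1.46 (SE 0.43, limma adjusted p = 0.00919).

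Pfkfb1, the liver and muscle form, and Pfkfb2, the heart form, were higher from low levels. Pfkfb1 read 50.3, 31.2, 63.0, 24.0 and 77.0 in normal lung and 96.5 to 191 in tumors with a median of 123, without overlap. It was higher by 1.50 on the log2 scale (SE 0.31, limma adjusted p = 8.71e-04). Pfkfb2 read 36.7 to 45.2 and 37.1 to 105 with a median of 64.7, at a log2 fold change of 0.74 (SE 0.28, limma adjusted p = 0.0357). That last call was lost on leaving out any 1 normal lung or tumor 2, 3 or 5, at adjusted p-values of 0.0526 to 0.0719 (0.00595 to 0.199 over all alternatives), and 19.5% of the annotated exon bases of Pfkfb2 overlap other genes. Per kb, Pfkfb1 and Pfkfb2 stayed the smaller transcripts: in tumors Pfkfb1 made up 8.62% to 12.1% and Pfkfb2 1.03% to 6.46% of the sum of the 4. That sum was 541 to 958 in normal lung and 224 to 499 in tumors, and the groups did not overlap.

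Neither of the transporters that bring glucose in was higher in tumors. Slc2a1 (GLUT1), the transporter of most dividing cells, read 206, 175, 137, 147 and 156 in normal lung. Tumor values were 31.4 at the lowest (tumor 4), 166 at the median and 211 at the highest (tumor 7). The groups overlapped widely, and the log2 fold change was -0.39 (95% interval -1.28 to 0.51, limma adjusted p = 0.434). Slc2a3 (GLUT3), the high-affinity transporter of neurons and leukocytes, read 624, 912, 822, 449 and 325 in normal lung and 23.4 to 413 in tumors with a median of 167. It was below every normal lung in 6 of the 7 tumors, at a log2 fold change of -2.35 (SE 0.58, limma adjusted p = 0.00322).

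Leukocyte markers moved with Slc2a3. Of 11 tested, 10 were lower in tumors, and their summed level was 85482 to 166441 in normal lung, 14544 in tumor 7 and 415 to 3970 in the other tumors. Of the 11 markers, 2, 3 and 4 were at 0 in tumors 1, 2 and 3, and none was at 0 elsewhere. Endothelial and lung epithelial markers were lower for 10 of 10 and 13 of 13, with sums of 85193 to 101222 and 316386 to 548545 in normal lung against 2834 to 7543 and 1500.03 to 4883 in tumors. No endothelial marker was at 0 in any sample, and of the epithelial markers Sftpa1 was at 0 in tumor 7, Sftpd and Scgb3a2 in tumor 3 and Cldn18 in tumors 1 and 3. The part of these cells in the lower members, Slc2a3 among them, was not tested.

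The carriers of lactate, Slc16a1 (MCT1) and Slc16a3 (MCT4, the exporter of glycolytic cells), did not pass. Slc16a1 read 577 to 966 in normal lung and 316 to 814 in tumors with a median of 553, at a log2 fold change of -0.51 (95% interval -1.08 to 0.06, limma adjusted p = 0.112). It passed without tumor 2 (-0.63, adjusted p = 0.0459) or tumor 7 (-0.62, adjusted p = 0.0492), with 0.0366 to 0.347 over all alternatives. Slc16a3 read 635, 809.6, 919, 855 and 528 in normal lung and 375 to 2135 in tumors with a median of 1174. Tumor 2 was the lowest and 5 of the other tumors lay above every normal lung. The log2 fold change was 0.66 (95% interval -0.14 to 1.47, limma adjusted p = 0.140), and without tumor 2 it was 0.94 (adjusted p = 0.00848, with up to 0.413 over all alternatives). The ratio of Slc16a3 to Slc16a1 per kb was -0.53 to 0.30 in normal lung and, outside tumor 2 at -1.38, 0.68 to 2.27 in tumors on the log2 scale. Bsg (basigin), the chaperone of both carriers, was lower at -0.67 (SE 0.22, limma adjusted p = 0.0175).

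At the branch into the mitochondria, the subunits of the E1 enzyme of pyruvate dehydrogenase moved in opposite directions. Pdha1, the alpha subunit, read 733, 916, 872, 760.3 and 777 in normal lung and 353 to 929.9 in tumors with a median of 467. 6 tumors lay below every normal lung and tumor 7 above them, at a log2 fold change of -0.70 (SE 0.22, limma adjusted p = 0.0118). Pdhb, the beta subunit, read 567, 512, 633, 526 and 579 against 703 to 1652 with a median of 782. All tumors were above all normal lungs, at 0.64 on the log2 scale (SE 0.20, limma adjusted p = 0.0142). Exons of Pdha1 overlap Map3k15 over 16.1% of their bases, and Pdhb shares 10.5% of its 100-base stretches with a pseudogene, and how reads in such stretches were counted is not given in the sources used here.

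The 4 Pdk kinases phosphorylate that alpha subunit and switch the complex off. Pdk2 read 829, 839, 935, 1222 and 1162 in normal lung and 151 to 908 in tumors with a median of 229. Tumor 7 alone reached the normal range, and the fitted change on the log2 scale was -1.73 (SE 0.40, limma adjusted p = 0.00222). Pdk1, the form induced by hypoxia-inducible factors, read 978, 1244, 946, 906 and 889 in normal lung and 559 to 2929.7 in tumors with a median of 1418. It did not pass, at 0.34 on the log2 scale (95% interval -0.43 to 1.12), with 4 tumors above and 3 below the normal range.

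Pdk4, induced by fasting and by fatty acids, read 157, 174, 541, 196 and 228 in normal lung. Tumors had 34.8 in tumor 5 at the lowest, a median of 91.7 and 1100.3 in tumor 7 at the highest. The log2 fold change of -0.76 did not pass (95% interval -2.22 to 0.70, limma adjusted p = 0.348), and without tumor 7 it was -1.26 (adjusted p = 0.0317, with up to 0.873 over all alternatives, in some of which the sign turned). Pdk3 read 202 to 305 and 175 to 309.7 and did not pass (-0.21, 95% interval -0.63 to 0.21). Per kb, Pdk2 was 43.6% to 57.5% of the 4 kinases in normal lung and 12.6% to 36.2% in tumors, without overlap. Pdk1 was 17.2% to 27.6% in normal lung, 13.3% in tumor 7 and 24.6% to 65.3% in the other tumors.

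The tumors differed among themselves across the path. Tumor 3 was the highest tumor for 12 of the 32 genes, namely Pfkl, Aldoa, Aldoc, Tpi1, Gapdh, Pgk1, Pgam1, Eno1, Pkm, Ldha, Slc16a3 and Pdk1, and the lowest for Ldhb alone. Tumor 4 has the same title number as tumor 3 and was the lowest tumor for 8 genes, Slc2a1, Hk2, Gpi1, Pfkp, Pfkfb3, Slc16a1, Pdk1 and Pdha1, and the highest for Eno2. Between these libraries 26 of the 32 genes were higher in tumor 3, 16 of them by over 2-fold, and 2 were lower by over 2-fold. Marker sums differed between them too: fibroblast and smooth muscle markers summed to 6553 in tumor 3 and 23066 in tumor 4, leukocyte markers to 415 and 2639, cardiac markers to 607 and 2542, and adipocyte markers to 103 and 1493. The part of these tissues in the difference was not tested. Hk2 was 5.41-fold, Pdk1 5.24-fold, Ldha 4.92-fold, Slc2a1 4.64-fold and Eno1 4.17-fold higher in tumor 3, and Ldhb and Pdk4 were the 2 genes lower. These compare 1 library with 1 library and have no replicate check. The counts between these libraries were not made over all genes, so it is not shown whether these genes differ more than others do. Of 22 genes of the hypoxia system outside the 33, 16 were higher in tumor 3 than in tumor 4, 12 of them by over 2-fold, and 3 were lower by over 2-fold. Egln3, an oxygen sensor, was 3.84-fold and Vegfa 5.61-fold higher, whereas Epas1, Hif3a and Car9 stood at 0.27, 0.26 and 0.34 of their level in tumor 4. The hypoxia counts too have no share over all genes beside them, and the part of hypoxia in the difference was not tested. Tumor 6 was the highest for no gene of the 32 and the lowest for 7. How often each tumor was highest or lowest over all genes was not counted. These counts are therefore not shown to be particular to the 32 genes.

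The genes around glycolysis gave no single direction. Among 24 other isozymes and carriers tested, 4 were higher and 9 lower. Over all genes tested, 31.4% were higher and 30.1% lower, and 61.5% passed in either direction. In this list and those that follow, 40.9% to 66.7% of the genes tested passed, near or below that share. The counts are therefore not read as a trait of the lists. Slc2a5, the fructose transporter, read 0 to 8.05 in normal lung and 22.6 to 157 in tumors, a log2 fold change of 4.01 (SE 0.61, limma adjusted p = 7.74e-05), with 4 of the 5 normal lung values resting on 3 reads or fewer. Slc2a10 was lower at -4.10 (SE 0.64, limma adjusted p = 1.00e-04). In the pentose phosphate pathway, which makes NADPH and ribose, 1 of 9 was higher and 5 lower, and without normal lung 3 or without normal lung 4 there were 3 lower. Pgd, its 6-phosphogluconate dehydrogenase, fell by 1.48 on the log2 scale (SE 0.17, limma adjusted p = 5.11e-06), and H6pd, which acts in the endoplasmic reticulum, had -3.46 (SE 0.40, limma adjusted p = 6.31e-06). Tktl1, a transketolase-like gene, had 2.30 to 15.5 in normal lung and 82.3 to 1061 in tumors, a log2 fold change of 4.77 (SE 0.62, limma adjusted p = 2.06e-05).

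Past pyruvate, 50% of 8 genes passed, beside 61.5% of all genes tested. Of these 8, in mitochondrial pyruvate entry and the rest of the pyruvate dehydrogenase complex, 3 were higher and 1 lower. Pdhx, its E3-binding protein, was higher at 0.99 (SE 0.18) and Pdpr, a regulator of its phosphatase, at 0.81 (SE 0.24), whereas Pdp2, a phosphatase that reactivates the complex, had -1.02 (SE 0.25), with limma adjusted p-values of 3.63e-04, 0.0095 and 0.00324. The carriers Mpc1 and Mpc2 did not pass. Of 16 tricarboxylic acid cycle genes, 5 were higher and 3 lower, the latter 5 without tumor 7. Idh3a, a subunit of mitochondrial isocitrate dehydrogenase, was higher at 0.98 (SE 0.15, limma adjusted p = 7.18e-05). Suclg1 and Suclg2, of succinyl-CoA ligase, had -0.74 and -1.16.

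Of the 7 gluconeogenesis genes tested, 0 were higher and 4 lower with limma, beside 31.4% and 30.1% of all genes tested. The count of higher genes was also 0 at an unadjusted p under 0.05, in DESeq2 and in edgeR with the deposited size factors, and 1 in edgeR with TMM factors. Pcx, pyruvate carboxylase, had 886 to 1371 in normal lung and 192 to 378 in the tumors other than tumor 7 at 1108, a log2 fold change of -1.80 (SE 0.36, limma adjusted p = 7.03e-04). Slc37a4, the glucose 6-phosphate transporter, had -0.69. Of 9 genes of the shuttles that carry NADH into mitochondria, 5 were higher and 1 lower, the latter 2 without tumor 1 and 3 without tumor 7. Slc25a13, the aspartate and glutamate carrier, was higher at 1.42 (SE 0.22, limma adjusted p = 8.00e-05) and Gpd1l lower at -0.87. Of 12 glycogen genes, 2 were higher and 4 lower, with Gyg, the glycogen primer, and Pygl, liver glycogen phosphorylase, at -2.37 and -2.12.

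Because many glycolytic genes answer to hypoxia-inducible factors, 22 other genes of that system were counted. There 4 were higher and 5 lower, so that 40.9% passed, beside 61.5% of all genes tested. Egln3 went from 67.6 ± 33.5 (SD, n = 5) to 501 ± 319 (SD, n = 7) and Ddit4 from 948 ± 176 to 4096 ± 1712, with log2 fold changes of 2.71 (SE 0.44, limma adjusted p = 1.49e-04) and 2.03 (SE 0.25, limma adjusted p = 1.34e-05). Epas1, which encodes HIF-2 alpha and is abundant in lung endothelium, had -5.79 (SE 0.39, limma adjusted p = 3.75e-08), and Vegfa, its target made in lung epithelium, -3.76 (SE 0.35, limma adjusted p = 9.03e-07). Car9, a widely used hypoxia marker, read 20.4 to 33.9 in normal lung and 3.97 to 58.3 in tumors and did not pass (limma adjusted p = 0.165).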

How the data were processed

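RNA was extracted with miRNeasy columns from tissue kept in RNALater, and poly-A selected libraries were sequenced from both ends (Illumina NovaSeq), per the labels' protocols. The deposited table gives normalized read counts, a signal on a scale shared by 12 samples. Every value was a whole multiple of its column's smallest step (100% within 0.001 reads), the worth of 1 read, and the reciprocal of that step matched a median-of-ratios size factor within a relative difference of 1e-06 in all 12. The submitters' processing notes name featureCounts, DESeq2 and GRCm39. The aligner, annotation and strand setting are not given in the sources used here. Recovered totals were 11126432 to 17032234 reads for normal lungs and 13093843 to 24217633 for tumors, and 3 reads correspond to at most 4.85 and 3.57 normalized counts, which covers counting error only.

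GENCODE M21 named 29982 of the 30399 identifiers and gave exon lengths. It is an annotation of GRCm38, so no gene coordinates are printed from it. Tests covered the 23674 genes with a mean of 1 or more, as log2(value + 1), in limma 3.58.1 (lmFit, eBayes with a trend, R 4.3.3), 7 tumors against 5 normal lungs, with Benjamini-Hochberg adjustment over all of them. The foreseen edgeR test applied to raw counts only. Fold changes carry that added 1, so those of low genes are understated. edgeR 4.0.16 and DESeq2 1.42.0 were run on the whole reads of 11 samples, leaving out tumor 3, whose step lies too near 1 for the recovery to be checked. Fits were tested on simulated data in which few genes changed, up and down alike, with the same setting for spread in every gene. Most genes passed in the real data, so that test does not vouch for these calls. Shares and ratios used Python 3.11.15.

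The members, gene lists and tests were chosen with earlier results of these data known. Named genes are the members, and in each surrounding list up to 2 genes with the largest change in each direction among those past the test with a mean log2 value of at least 4, plus isozymes or carriers of a member's step. Some genes of the lists are counted but not reported by name here. Car9, Bsg, the Mpc carriers and the markers named as examples were added after their values were seen. Slc16a8, Rbks, Hif1a and Adm were not analysed here. Replicate numbers are in order of listing. Each title number occurs in 1 group only, so no comparison of the groups within a number exists.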

Additional observations from a re-analysis of the deposited data

Results flagged for a closer look

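In 6 groups of 5 or 7 values, 1 sample lay far from the others by Dixon's test at the 95% level. Chance gives about 1 in 20 groups, or 5.8 of those examined. Pgam1 read 68.4 in normal lung 1, with the other normal lungs at 40.4 to 46.2, and 294 in tumor 3, with the other tumors at 94.1 to 144.3. Pdk1 read 1244 in normal lung 2 and 889 to 978 in the others. Among the surrounding genes, tumor 7 stood apart in 3: Pgd at 1541 against 793 to 1022 in the other tumors, Pcx at 1108 against 192 to 378, and Got1, the cytosolic aspartate aminotransferase, at 2682 against 438 to 745. The heart and fat marker sums of tumor 7 are given in the report, and their part in these values was not tested.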

How the results depend on the processing

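Over 25 alternatives, the 32 genes gave 800 values. Of these, 754 kept direction and side of the threshold, 24 lost a call, 9 gained one and 13 turned sign. The 11 samples of the count tests leave out tumor 3, so limma on them is the fit without tumor 3, counted under both names. Of the 22 called genes, 16 kept their call in every alternative. The number higher ranged from 12 (with the level of 4 Y-linked genes as a covariate) to 15 and the number lower from 5 (equal totals) to 10 (without tumor 7). Leaving out each sample in turn gave 13 to 15 higher and 7 to 10 lower. No paired analysis was possible because replicate numbers are in order of listing.

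Aldoa turned to -0.084 in edgeR with the deposited size factors, -0.060 in DESeq2, -0.0057 with tumors of 1 title number averaged and -0.41 with the Y-linked covariate. Without normal lung 1 (-0.06) or 5 (-0.05) or tumor 2 (-0.04), 3 (-0.13) or 7 (-0.02) it lay between -0.13 and -0.02. Limma on the 11 samples of the count tests is the fit without tumor 3 and gave the same -0.13. Pdk4 turned to 0.27 in edgeR with TMM factors, 0.16 with the deposited factors and 0.17 in DESeq2. Scaling to equal totals moved the median of all genes by 0.19 and ended the calls of Bpgm (-1.09) and Pdha1 (-0.50). Averaging also ended that of Bpgm (-1.08). In edgeR the call of Pdha1 was lost with TMM factors and that of Hk1 with the deposited size factors. The Y-linked covariate ended those of Pfkl (0.47), Pfkfb2, Pdha1 and Pdhb (0.52). It and the 11-sample limma fit were chosen after seeing the data. Ldhb was -3.29 to -3.40 in the count tests. Got1 passed narrowly at an adjusted p of 0.0482, and its call was lost in 11 alternatives. The causes were not tested. Values under the 3-read floor, such as those of Slc2a5 in normal lung, cannot be ranked.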
